A study of Mus musculus with 7 samples.

Results

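The genes examined were 9 that encode corepressors and coactivators of nuclear receptors, namely Ncor1, Nrip1, Ncoa1, Ncoa2, Ncoa3, Ep300, Crebbp, Med1 and Ppargc1b. They were chosen by name, with earlier results of these data known, out of 21536 mouse protein-coding genes whose start could be placed. A peak was counted for a gene when its midpoint lay in the gene span or within 50 kb of it. Binding of the retinoic acid receptors α and β (RARα and RARβ) and of their partner, the retinoid X receptor α (RXRα), was mapped by chromatin immunoprecipitation followed by sequencing (ChIP-seq) in livers of male C57BL/6 wild-type mice aged 3 months. One group ate a control diet. The other was fed retinoic acid (RA) in its diet, over 1 day according to the labels; the methods of the study give a longer treatment without tying it to an assay, so the duration is not settled. Each receptor and diet had 1 library and 1 peak list, which makes 6 lists, and a common input library was sequenced for both diets. The sources used here do not say how many animals gave each library, so no difference below has a replicate check and no test between the diets was possible.

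The lists held 245004 peaks in all, with 14968 in the shortest (RARβ, control diet) and 61128 in the longest (RXRα, control diet), and their read depth is not known. Each peak carries a score from the peak caller, 10 times the negative log10 of its p-value, with 50 as the lowest value in the lists. Scores depend on depth, so a peak was compared with others of its own list only, by its rank from the top. Ranks under both diets are set side by side as a description, since the lists differ in length and depth and a rank then does not measure a change in binding. Of the markers of liver cell types, all 5 hepatocyte marker genes were bound within 10 kb of their start in at least 1 list, beside 71.8% of all genes, and 2 of them, Apoa1 and Cyp7a1, in all 6 lists, beside 38.2%, which is the background. None of 3 Kupffer cell markers was bound so in any list, and 1 of 3 stellate cell and 1 of 3 cholangiocyte markers were in at least 1, as were all 3 endothelial markers; these counts are too small to check the tissue.

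RARs bind DNA as heterodimers with RXRs, and the state of the ligand pocket decides which partner proteins they hold. Without ligand, the heterodimer can hold the corepressor NCoR1, which brings histone deacetylase activity to chromatin. With ligand, coactivators of the p160 family bind in its place and recruit the acetyltransferases p300 and CBP, and the Mediator subunit MED1 links the receptor to the transcription machinery. NRIP1, also called RIP140, is a corepressor that binds receptors carrying ligand. PGC-1β, the product of Ppargc1b, is a coactivator known in liver for its part in mitochondrial and lipid metabolism. The question put to the lists was whether the receptors bound at the genes of their own cofactors, where, and whether this differed between the diets.

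All 9 genes were bound in every list except that of RARβ under the control diet, where 8 were. Of all protein-coding genes, from 70.2% to 84.8% had such a peak, depending on the list. RXRα had the longest lists and gave the most peaks. With every list cut to the length of the shortest, RARα, RARβ and RXRα had 22, 27 and 29 peaks under the control diet. Under RA they then had 24, 30 and 32. In the lists as deposited, 58 RARα peaks, 27 RARβ peaks and 114 RXRα peaks lay at the 9 genes under the control diet. Under RA these numbers were 74, 59 and 114. The number of RARβ peaks under RA was thus 2.19 times that under the control diet (95% interval 1.39 to 3.43, counting error only), beside 1.97 times over all peaks of the genome. With every list cut to the length of the shortest, the RARβ ratio was 1.11, from 27 and 30 peaks. For RARα the ratio was 1.28 (0.906 to 1.80) beside 1.25, and for RXRα it was 1.00 (0.772 to 1.30) beside 0.975. The growth of the RAR counts at these genes was therefore close to that of the lists as a whole. The median gene of the 9 had 5 RARα peaks in the control list and 6 in the RA list, 3 and 6 RARβ peaks, and 13 RXRα peaks under both diets. Over all protein-coding genes the medians were 4 and 4, 1 and 3, and 5 and 5. Since the 9 genes are long, the counts were also set per 100 kb of searched sequence: the medians were 2.39 and 3.22 for RARα, 0.910 and 2.48 for RARβ and 5.07 and 5.59 for RXRα. The corresponding medians over all genes were 2.66 and 3.07, 0.957 and 1.92, and 3.77 and 3.69. Per length, the RARα medians were thus close to those of all genes, and the RXRα medians under both diets and the RARβ median under RA were above them.

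The genes differed in how their counts moved. RARβ peaks were more numerous under RA at 8 of the 9 genes, from 0 to 6 at Ncor1, from 1 to 6 at Nrip1, from 3 to 7 at Ncoa1, from 3 to 6 at Ncoa2, from 6 to 13 at Ncoa3, from 1 to 3 at Crebbp, from 3 to 5 at Med1 and from 6 to 10 at Ppargc1b. Ep300 was the exception, with 4 RARβ peaks under the control diet and 3 under RA. RARα peaks were more numerous under RA at 7 genes, with the widest step at Ncoa3, from 11 to 15, and the counts were equal at Ncoa1 with 5 and at Med1 with 3. RXRα counts rose at 4 genes, fell at 4 and were equal at Ncor1, with 13 under each diet. The lowest and highest RXRα counts belonged to Ep300, with 5 and 4, and to Ppargc1b, with 22 and 18. Counts of this size carry a counting error of several peaks each, and the spread between animals is not known. How many of all protein-coding genes had a higher count under RA is not given here, so these gene numbers have no background. Genome-wide, the ratio of RA to control peaks was 1.97 for RARβ, 1.25 for RARα and 0.975 for RXRα. After cutting to equal length, the 9 genes together had 27 RARβ peaks under the control diet and 30 under RA.

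**Figure D1:**
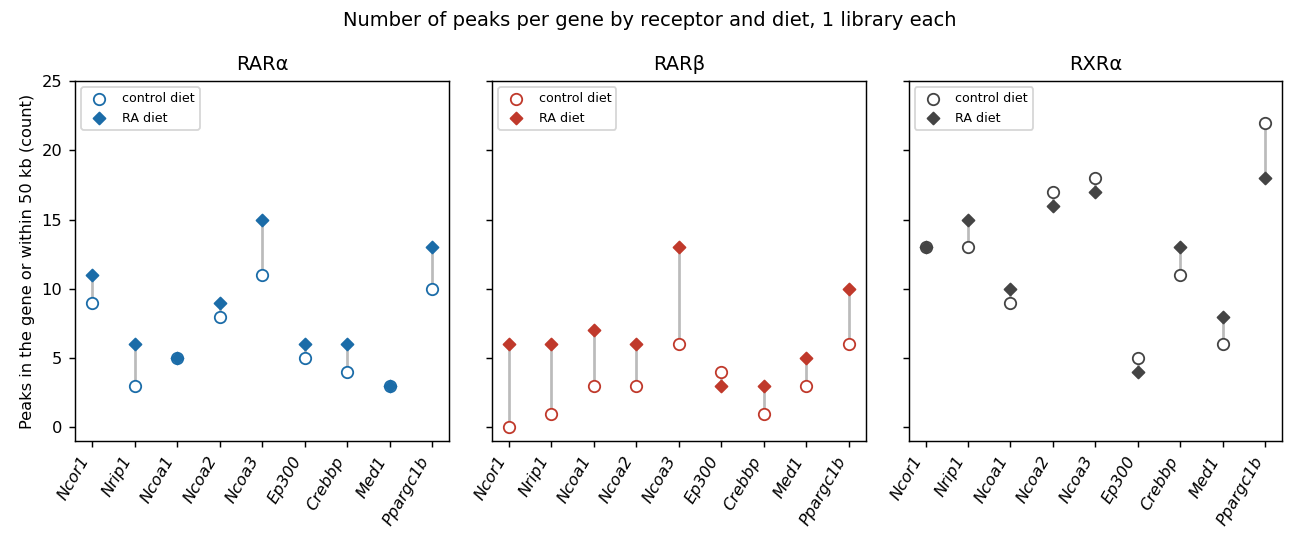
Number of peaks in each gene or within 50 kb of it (vertical axis, count), by gene, in 1 panel per receptor, with open circles for the control diet, filled diamonds for the RA diet and 1 library per symbol. The RARβ panel shows 8 of 9 diamonds above their circles, Ncor1 going from 0 to 6, while in the RXRα panel 4 lie above and 4 below. The share of all genes with such a shift is not given.

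**Figure D2:**
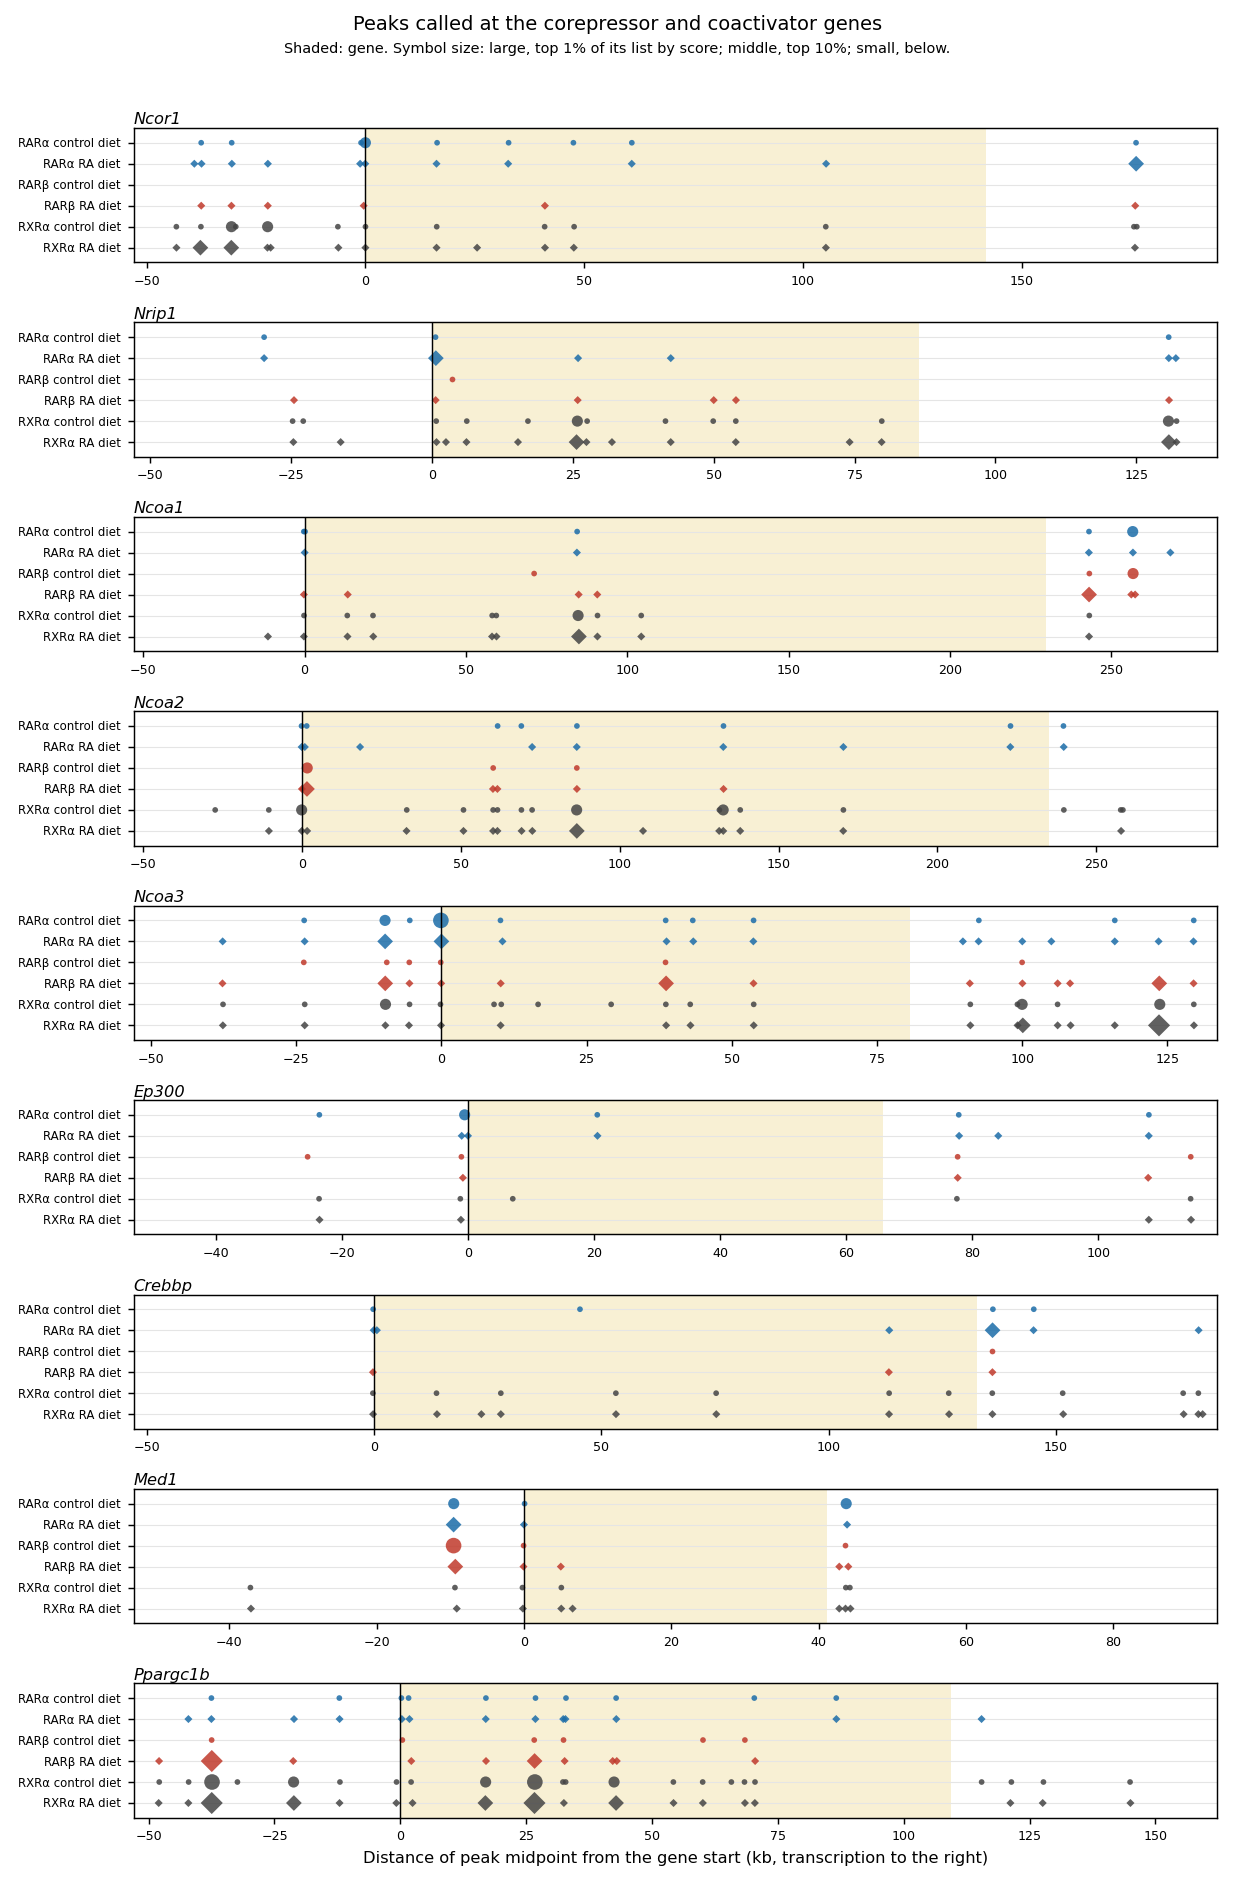
Position of every peak at the 9 genes, as the distance of its midpoint from the gene start in kb with transcription to the right, in 1 row per receptor and diet; the shaded box is the gene and symbol size gives the rank class in its own list. The line at 0 carries RARα symbols at every gene, whereas the large RXRα symbols, such as those of Ppargc1b near −37.5 and 26.7 kb, lie away from it.

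The gene starts were bound by RARα throughout, and by RARβ mainly under RA. A RARα peak midpoint lay within 1 kb of the start of all 9 genes under both diets, beside 45.9% of all protein-coding genes under the control diet and 46.2% under RA. RXRα had such a peak at 8 of the 9 genes under each diet, beside 40.1% and 41.9% of all genes. The exception was Ep300, whose RXRα midpoints lay at −1.18 kb and −1.09 kb, where a negative offset is upstream of the start. RARβ had such a peak at 3 of the 9 genes under the control diet, beside 33.1%, and at 8 of the 9 under RA, beside 40.3%. In all 6 lists the start was bound at 2 of the 9 genes, Ncoa3 and Med1, beside 24.7% of all genes, which is near the background.

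At 6 of the 9 genes, Ncor1, Nrip1, Ncoa1, Ncoa2, Ep300 and Crebbp, a RARβ peak lay within 1 kb of the start under RA and not under the control diet, beside 9.89% of all protein-coding genes. The 1 kb limit sets part of this count. At Ep300 the RARβ peak under the control diet was at −1.01 kb, just past the limit, and that under RA at −0.776 kb. At Ncoa2 the RARβ list under the control diet held a peak at 1.66 kb with rank 995, and under RA a peak remained at 1.58 kb with rank 2247 while a low one, of rank 21178 among 29467, was added at −0.013 kb. At Ncor1, Ncoa1 and Crebbp no RARβ peak lay within 10 kb of the start under the control diet, and the start peaks under RA had ranks 4290, 19475 and 13766. Ppargc1b went the other way: its RARβ peak at 0.400 kb under the control diet had a score of 51.8, close to the lowest possible value, and the RARβ peak under RA lay at 2.18 kb.

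The base sequence at the starts could be read for 6 of the 9 genes from the RefSeq promoter table of GRCm38.p6, which gave 8 starts with 250 bases before and 50 after each. Ncoa2, Ncoa3 and Ppargc1b have no entry there. Windows were searched on both strands for the receptor hexamers AGGTCA and AGTTCA, for GGGTCA and GGTTCA, and for their direct repeats with spacings of 1 to 5 bases. A hexamer stood in 2 of the 8 windows and a direct repeat in 0, whereas 43.7% of the 32851 promoters of the table held a hexamer and 0.700% a direct repeat. Ncor1 and Nrip1 have more than 1 start in the table, so a start with peaks over its window and one without can be set side by side. For these 4 starts the 250 bases before the start are printed 5′ to 3′ on the strand of the gene, which is the minus strand for both, with hexamers on either strand in capitals.
Ncor1 start 82 bp inside the outermost one, chr11:62457333-62457582: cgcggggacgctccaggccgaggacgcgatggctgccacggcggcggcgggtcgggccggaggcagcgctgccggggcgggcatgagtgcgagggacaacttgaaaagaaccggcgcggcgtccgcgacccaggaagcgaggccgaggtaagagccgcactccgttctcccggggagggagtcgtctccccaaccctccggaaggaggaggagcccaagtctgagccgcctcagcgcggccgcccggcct
Ncor1 start 18899 bp inside the outermost one, chr11:62438516-62438765: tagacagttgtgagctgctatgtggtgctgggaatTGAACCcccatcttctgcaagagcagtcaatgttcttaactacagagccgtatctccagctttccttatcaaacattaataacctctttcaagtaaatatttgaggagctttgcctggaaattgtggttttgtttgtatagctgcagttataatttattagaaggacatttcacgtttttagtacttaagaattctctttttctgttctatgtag
Nrip1 start 778 bp inside the outermost one, chr16:76373050-76373299: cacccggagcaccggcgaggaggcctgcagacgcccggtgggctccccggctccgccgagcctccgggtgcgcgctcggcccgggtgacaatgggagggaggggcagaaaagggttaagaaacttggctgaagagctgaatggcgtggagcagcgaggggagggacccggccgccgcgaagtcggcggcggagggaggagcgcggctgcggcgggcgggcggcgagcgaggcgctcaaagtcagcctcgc
Nrip1 outermost start, chr16:76373828-76374077: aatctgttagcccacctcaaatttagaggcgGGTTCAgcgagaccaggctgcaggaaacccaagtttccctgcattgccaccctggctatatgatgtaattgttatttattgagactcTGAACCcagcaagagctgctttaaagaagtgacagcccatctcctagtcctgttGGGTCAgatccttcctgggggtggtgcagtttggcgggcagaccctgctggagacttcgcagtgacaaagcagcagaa

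In each pair, the start with peaks over its window was the one rich in G, C and the dinucleotide CG. Peaks of 5 lists, all but RARβ under the control diet, overlapped the 300-base window of the first Ncor1 start, which was 72.3% G or C with 36 CG. No list had a peak over the inner Ncor1 start, which was 38.3% G or C with 2 CG and held 1 hexamer, TGAACC at −215 bp, the opposite-strand reading of GGTTCA. At Nrip1 the same 5 lists overlapped the inner start, 73.3% G or C with 40 CG and no hexamer. The window of the outermost Nrip1 start, 52.7% G or C with 6 CG, had no peak over it in any list. It held 3 hexamers, GGTTCA at −219 bp, TGAACC at −132 bp and GGGTCA at −78 bp. This outermost start is the one used for the 1 kb counts above, and 5 lists had a peak midpoint within 1 kb of it, inside the gene. The contrast therefore concerns the 300-base windows only. Over all promoters of the table the medians were 52.7% and 7 CG. The single starts of Ncoa1, Ep300, Crebbp and Med1 had G and C contents of 84.7%, 72.3%, 82.0% and 68.3%, no hexamer, and overlapping peaks in 5, 3, 1 and 4 lists. They lay 24, 5, 553 and 407 bp inside the outermost start of their gene. The outermost starts of Crebbp and Med1, used in the other counts, had a peak midpoint within 1 kb in 5 and 6 lists. These letters describe the windows and say nothing of a contact by a receptor, and hexamers with other letters were not searched.

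Start peaks also differed from the other peaks in rank, and the receptors differed in this. In the RARα list under the control diet, the 11 peaks within 1 kb of a start of the 9 genes had a median rank 23.6% from the top, whereas the 47 other peaks at these genes had a median of 68.5%. Over all peaks of that list the medians were 21.4% at starts and 58.9% elsewhere. In the RXRα list of the same diet the 8 start peaks had a median of 54.6% and the 106 others 49.9%, beside 51.7% and 49.6% over all peaks. Among RARβ peaks under RA, the 8 at starts had a median of 24.4% and the 51 others 51.2%, beside 32.3% and 56.6% over all peaks. The 9 genes thus showed the contrast that the whole lists show. The best RARα peak of a gene lay within 1 kb of its start for 5 genes in control livers and 4 under RA, and the best RXRα peak for none under either diet. The best RARβ peak did so for none in control livers and for 1 gene under RA. The share of all protein-coding genes with their best peak at the start is not given here. These gene counts therefore have no background and do not set the receptors apart.

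**Figure D3:**
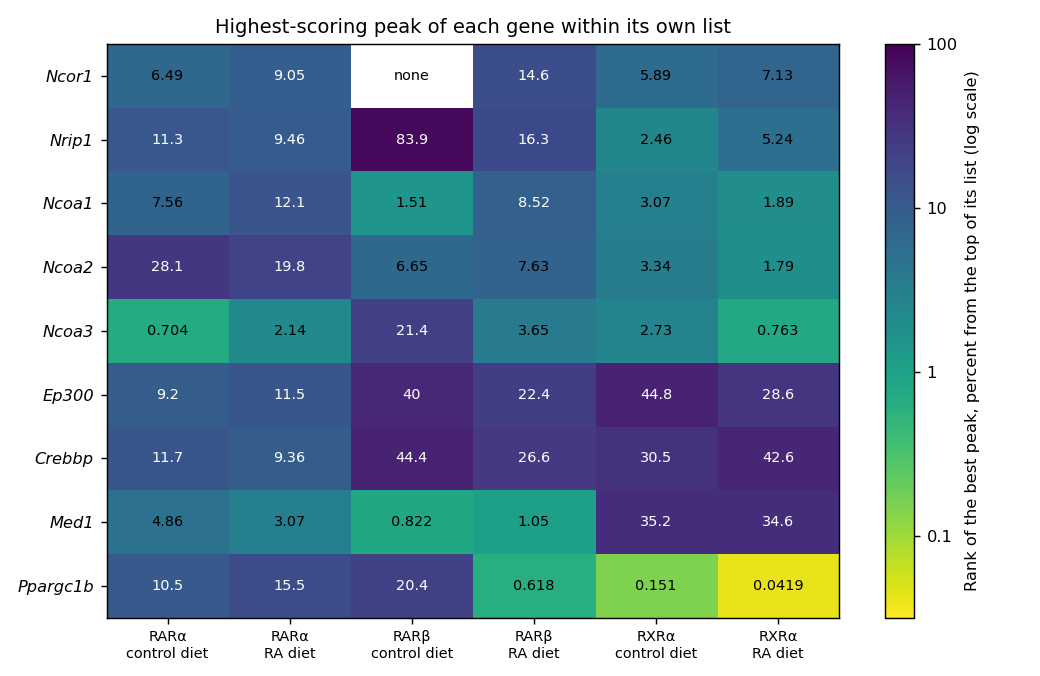
Rank of the highest-scoring peak of each gene (rows) within each list (columns), as percent from the top of that list on a log colour scale, with the value in each cell. Ppargc1b has the cells nearest the top, 0.151% and 0.0419% in the RXRα lists, and Ncor1 has no RARβ peak under the control diet.

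Peaks were mostly shared between the diets for RARα and RXRα. For RARβ this held for the peaks of the control diet and not for those of RA. Peaks of a pair of lists counted as shared when their overlap made up at least 25% of each. At the 9 genes 51 of 58 RARα peaks of the control diet were shared with RA, 87.9% (Wilson 95% interval 77.1 to 94.0), beside 84.2% over the list, and 51 of 74 RARα peaks of RA were shared with the control diet, 68.9% beside 68.4%. For RXRα the shares were 86.0% (98 of 114) beside 78.7%, and 85.1% (97 of 114) beside 80.3%. For RARβ, 19 of 27 peaks of the control diet were shared, 70.4% (51.5 to 84.1) beside 75.8%. Of the 59 RARβ peaks under RA, 20 were shared, 33.9% (23.1 to 46.6) beside 38.2%. With only 27 RARβ peaks under the control diet the unequal lists limit this last share, so it does not measure a difference between receptors. Each of these shares lay near its background.

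RXRα peaks lay under most RAR peaks in the lists as deposited. With lists of equal length the shares were lower, the highest being 53.3% of 30 peaks for RARβ under RA, too few to call it most. Under the control diet 41 of 58 RARα peaks at the 9 genes were shared with RXRα, 70.7% beside 61.1%, and 21 of 27 RARβ peaks, 77.8% beside 77.8%. Under RA the shares were 49 of 74 RARα peaks, 66.2% beside 61.7%, and 55 of 59 RARβ peaks, 93.2% (83.8 to 97.3) beside 89.9%. With lists of equal length these 4 shares were 22.7%, 25.9%, 25% and 53.3%, in the same order, of 22, 27, 24 and 30 peaks. A share over all peaks at equal length is not given here, so these 4 have no background. The 39 RARβ peaks under RA that had no RARβ partner under the control diet were followed back. Of these, 34 (87.2%) lay on a peak that the RXRα list of the control diet already held, beside 85.8% over the whole list, and 19 (48.7%) on a RARα peak of the control diet, beside 45.6%. Under RA 38 of the 39 (97.4%, 86.8 to 99.5) lay on an RXRα peak, beside 88.3% over the whole list.

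Merging overlapping peaks of the 6 lists gave 146 regions at the 9 genes, of 87802 in the genome. Of these, 15 (10.3%, beside 9.75% of all regions) were called in all 6 lists and 28 (19.2%, beside 16.0%) for all 3 receptors in fewer lists. RARα and RXRα without RARβ had 16 (11.0%, beside 10.9%), RARβ and RXRα without RARα also 16 (11.0%, beside 6.88%), the RARs without RXRα 20 (13.7%, beside 20.1%) and RXRα alone 51 (34.9%, beside 36.3%). A RARβ call was present under RA and not under the control diet in 36 regions, 24.7% (18.4 to 32.2) beside 19.8% of all regions, and the reverse held in 7, 4.79% beside 3.6%. Of the 36 regions, 33 were called for RXRα under the control diet, 91.7% (78.2 to 97.1) beside 86.7%. Most of these shares too were near their background. RARβ and RXRα without RARα lay above it (interval 6.86 to 17.1) and the RARs without RXRα below it (9.05 to 20.2). In both cases the background was just inside the edge of the interval. For 93 of the 146 regions the nearest protein-coding start was that of the gene itself. The others lay nearer to the start of another gene, so their link to the corepressor or coactivator gene rests on distance alone.

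**Figure D4:**
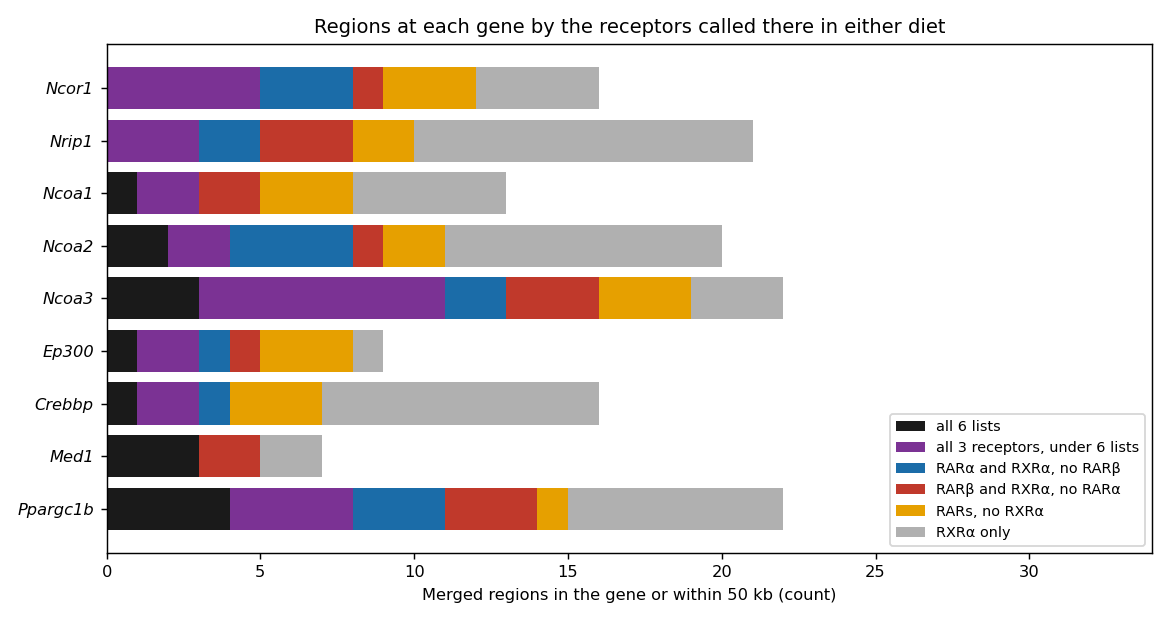
Number of merged regions at each gene (horizontal axis, count), divided by the receptors for which the region was called under either diet. Nrip1 has 11 of its 21 regions called for RXRα alone, whereas Med1 has 3 of its 7 called in all 6 lists.

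Ncor1 encodes the corepressor NCoR1 and lies on the minus strand at chr11:62315663-62457414. It was the only one of the 9 genes with no RARβ peak under the control diet, and it had 6 under RA, all in regions that held an RXRα peak under the control diet. The region at its start, from 62456995 to 62459101, was called in the other 5 lists and also lies 0.393 kb from the start of Pigl, a divergent neighbour. The RARα peak there had rank 2306 of 35521 under the control diet and 5638 of 44296 under RA. The RXRα peaks over the same start were low, with ranks 40276 and 34020. RXRα was instead high upstream: the region at −30.6 kb had RXRα ranks 3600 and 5054, and that at −37.7 kb 6689 and 4253. In these upstream regions RARα had ranks 32958 and 20641, and 35048 and 18822, and a RARβ peak was present under RA only. At −22.3 kb both RARs were called under RA and neither under the control diet, with scores of 51.7 and 53.2, near the lowest value, on an RXRα peak called under both diets. No region of Ncor1 was called in all 6 lists. The region at 176 kb, called in 5 lists, lies at the start of Zswim7 and held the best RARα peak under RA, rank 4007.

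Nrip1 encodes the ligand-dependent corepressor RIP140 and lies on the minus strand at chr16:76287403-76373827, with no other protein-coding start in its window. It had 21 regions, 11 of them for RXRα alone. Its start region was called in 5 lists, with RARα ranks 4012 and 4190, and a RARβ rank of 6406 under RA. The highest RXRα peaks lay inside the gene at 25.7 kb, with rank 1503 under the control diet and 3125 under RA. Both RARs were called there under RA and neither under the control diet, the RARα score of 53.2 again near the lowest value and the RARβ score being 99.5. A distal region at 131 kb, downstream of the gene end, was called in 5 lists, all but RARβ under the control diet. Its RARα ranks were 24561 and 15116, its RXRα ranks 5733 and 3727, and its RARβ rank under RA was 4812, the best of the gene in that list. The only RARβ peak of Nrip1 under the control diet, at 3.61 kb with a score of 55.2, was in no other list.

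Ncoa1, Ncoa2 and Ncoa3 encode the 3 p160 coactivators, also called SRC-1, SRC-2 and SRC-3. Ncoa1 lies on the minus strand at chr12:4247362-4477206. Its start was called in 5 lists, all but RARβ under the control diet, with low peaks: the RARα ranks were 22249 and 24825, the RARβ rank under RA 19475 and the RXRα ranks 50733 and 52091. Its strongest RXRα peaks lay at 84.7 kb inside the gene, with ranks 1875 and 1128, where RARα had low peaks under both diets and RARβ a peak of rank 8106 under RA only. The strongest RARβ peak under the control diet, rank 226 of 14968, lay at 257 kb, past the gene end and 13.5 kb from the start of Ptrhd1, and the best RARα peaks, ranks 2685 and 5357, lay there too. The region at 243 kb, called in all 6 lists, was at the start of Cenpo and held the best RARβ peak under RA, rank 2510.

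Ncoa2 lies on the minus strand at chr1:13139105-13374227 and had 20 regions, 9 of them for RXRα alone. Its start region stood higher in the RXRα lists than those of the other p160 genes, with ranks 5572 under the control diet and 6976 under RA. The RARα ranks there were 9983 and 8764. The RARβ ranks were 995 and 2247, from peaks at 1.66 and 1.58 kb, and this merged region was called in all 6 lists. A region at 86.5 kb inside the gene was called in all 6 lists, with RXRα ranks 2040 and 1067, whereas its RAR peaks ranked low: 25651 and 39020 for RARα, and 10537 and 14018 for RARβ. RXRα was also high at 133 kb, with ranks 3662 and 7862, in a region called in 5 lists.

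Ncoa3 lies on the plus strand at chr2:165992637-166073242, with no other protein-coding start in its window. It had the highest RARα and RARβ counts of the 9 genes under RA, 15 and 13. Its start held the best RARα peak of the set, rank 250 of 35521 under the control diet and 949 of 44296 under RA. RARβ had ranks 6198 and 4909 there and RXRα 12658 and 9969, so the start was called in all 6 lists. A second region in all 6 lists lay at −9.70 kb, with RARα ranks 2796 and 1924, RARβ ranks 8103 and 2785 and RXRα ranks 5157 and 7811. The third, at 38.7 kb inside the gene, had RARβ ranks 9125 of 14968 under the control diet and 1075 of 29467 under RA, and RXRα ranks 18672 and 8960. At 124 kb, downstream of the gene and 39.5 kb from the start of Sulf2, RXRα had rank 1671 under the control diet and 455 under RA. Both RARs were called there under RA and neither under the control diet, RARβ with a rank of 1937 and RARα of 25015. At −37.7 kb both RARs were also called under RA alone, with low ranks of 18140 for RARβ and 38817 for RARα. The RARβ peak of the control diet at −23.6 kb, rank 3207, had no RARβ partner under RA, while RARα and RXRα were called there under both diets.

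Ep300 and Crebbp encode the acetyltransferases p300 and CBP, which p160 coactivators bring to chromatin. Ep300 lies on the plus strand at chr15:81586209-81652077 and had 9 regions, with RXRα peaks numbering 5 under the control diet and 4 under RA. Peaks of all 6 lists merged at its start, with RARα ranks 3267 and 5091, RARβ ranks 7097 and 7966 and RXRα ranks 45497 and 28200. Its remaining regions ranked low in the RXRα lists, the best RXRα peak being 44.8% from the top under the control diet and 28.6% under RA, at 115 kb near Chadl. The best RARβ peak under the control diet, rank 5985, was at the same place, and that under RA, rank 6595, at 77.7 kb at the start of L3mbtl2. Under RA 1 region of Ep300 gained a RARβ call, in a place without an RXRα call under the control diet, and 2 regions lost one.

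Crebbp lies on the minus strand at chr16:4081334-4213957 and had 16 regions, 9 of them for RXRα alone. The region over its start was called in 5 lists, all but RARβ under the control diet, with middle ranks of 16201 and 22751 for RARα and 13766 for RARβ under RA, and low ranks of 49154 and 47627 for RXRα. Its best RAR peaks lay at 136 kb, past the gene end at the start of Trap1, in a region called in all 6 lists with RARα ranks 4146 and 4147 and RARβ ranks 6641 and 7839. At 113 kb, near the end of the gene, both RARs were called under RA and neither under the control diet, with scores of 69.7 for RARα and 54.7 for RARβ, on an RXRα peak present under both diets. The best RXRα peak of Crebbp was 30.5% from the top under the control diet, at 126 kb, and 42.6% under RA, at 136 kb, whereas each p160 gene had an RXRα peak in the top 10% under both diets.

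Med1 encodes the Mediator subunit that contacts nuclear receptors and lies on the minus strand at chr11:98152154-98193313. It is the shortest of the 9 genes and had 7 regions, 3 of them in all 6 lists. The region at its start had RARα ranks 5441 and 6859, RARβ ranks 3408 and 5096 and RXRα ranks 33179 and 43568. The highest RARβ peaks of its window under both diets, and the highest RARα peak under RA, lay at −9.37 kb, 0.248 kb from the start of Cdk12, with RARβ ranks of 123 among 14968 in control livers and 310 among 29467 under RA. RARα had ranks 3112 and 1358 there. RXRα was low in that region, with ranks 34816 and 20643. The third region in all 6 lists, at 44.0 kb, lay 1.58 kb from the start of Fbxl20 and held the highest RARα peak under the control diet, rank 1728, with rank 7171 under RA. The best RXRα peaks of Med1 were 35.2% from the top under the control diet, at 5.08 kb, and 34.6% under RA, at −9.12 kb, as at Ep300 and Crebbp outside the top 10%.

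Ppargc1b encodes PGC-1β and lies on the minus strand at chr18:61291445-61400756, with no other protein-coding start in its window. It had 22 regions, 21 of them called for RXRα under at least 1 diet, and 4 called in all 6 lists. The highest peak lay upstream at −37.5 kb, from 61437635 to 61438811. RXRα had a score of 1544 there under the control diet, rank 92 of 61128, and of 2116 under RA, rank 25 of 59624. RARβ had a score of 111 under the control diet, rank 3958 of 14968, and of 645 under RA, rank 182 of 29467. RARα had scores of 156 and 282, with ranks 12575 of 35521 and 7453 of 44296. All 3 rank numbers were lower under RA, but whether binding changed cannot be read from lists of unequal length and unknown depth.

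A second high region lay inside Ppargc1b at 26.7 kb, from 61373489 to 61374696. RXRα had ranks 121 and 194 there, with scores of 1468 and 1417. RARβ had ranks 3052 and 909 and RARα 6812 and 12966. The best RARα peaks of the gene lay at 86.6 kb, with ranks 3744 and 6871, in a region called for RARα alone. The fourth region in all 6 lists, at 32.6 kb, had RARα ranks 17867 and 28564, RARβ ranks 9893 and 10269 and RXRα ranks 18986 and 11088. At 16.96 kb RXRα had ranks 986 and 1007, and RARβ was called under RA only, at rank 4653. At 42.8 kb RXRα had ranks 3429 and 3967 and RARβ was again called under RA only, at rank 13392. At −21.3 kb both RARs were called under RA and neither under the control diet, with ranks 17682 for RARα and 7365 for RARβ, on RXRα peaks of ranks 3643 and 5747. Of the 6 regions at the 9 genes where both RARs were gained under RA, this one had the highest RARα score, 153. In the merged region over the start of Ppargc1b, called in all 6 lists and centred at 1.38 kb, RARα had scores of 242 and 259 and RXRα of 54.6 and 68.2. The RXRα peaks within 1 kb of the start lay in a separate region at −0.797 kb, called for RXRα alone, with scores of 146 and 261, 48.4% and 27.9% from the top. In the other direction, the RARβ peaks of the control diet at 60.1 and 68.5 kb, with scores of 53.6 and 64.1, had no RARβ peak of RA in their region, and RXRα was called in both regions under both diets. The RXRα count fell by 4 peaks under RA while RARα gained 3 and RARβ 4.

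**Figure D5:**
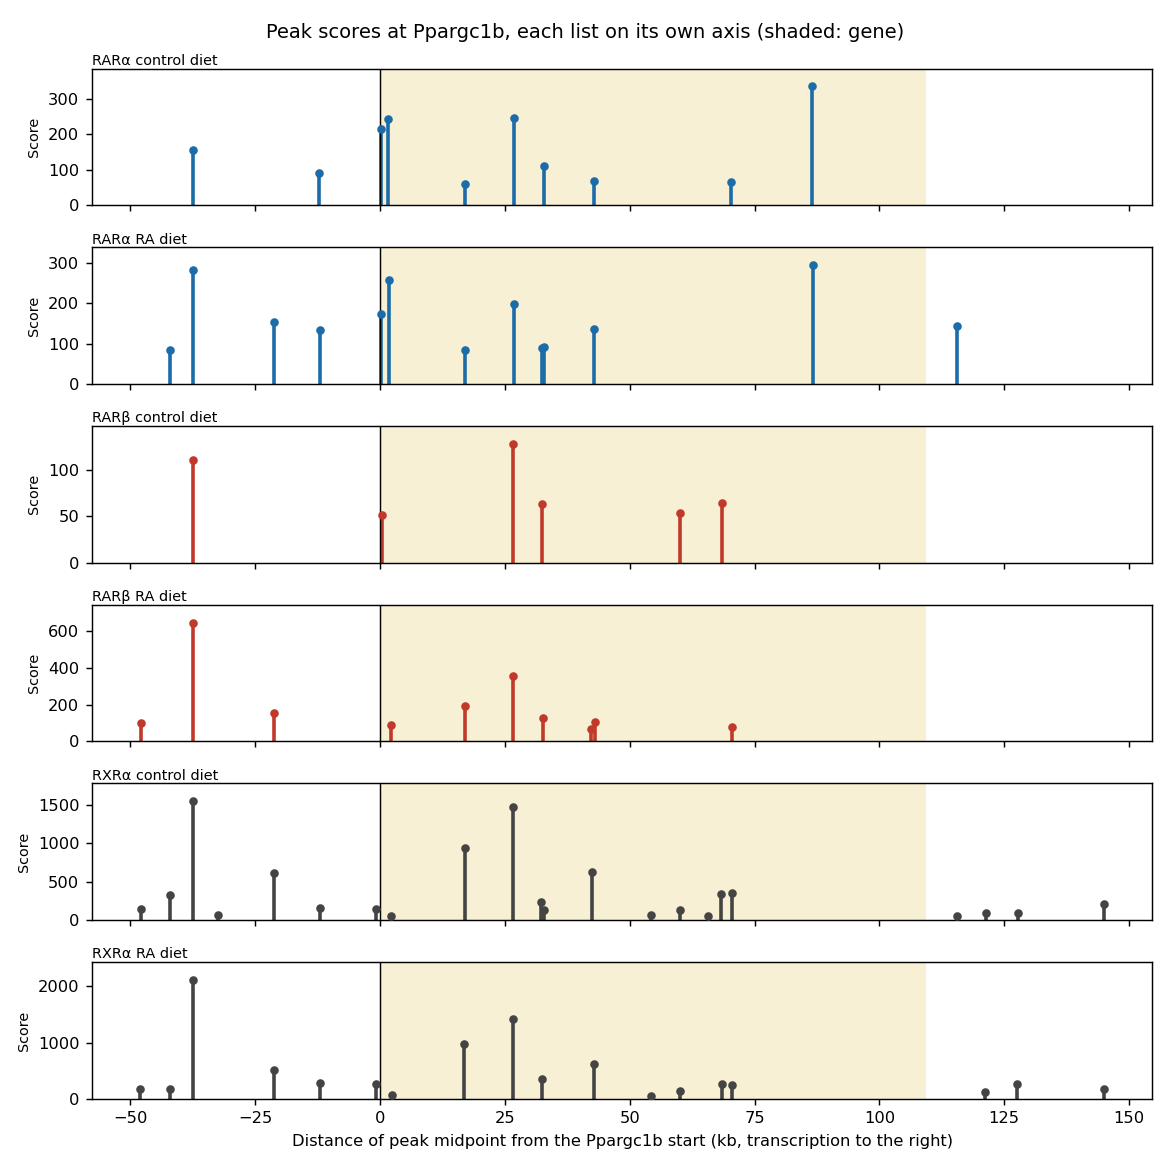
Score of each peak at Ppargc1b against the distance of its midpoint from the start in kb, in 1 panel per list with its own vertical axis, since scores are not comparable between lists; the shaded box is the gene. The RXRα peaks at −37.5 and 26.7 kb stand above all others in both RXRα panels, and the RARβ peak at −37.5 kb has a score of 111 under the control diet and 645 under RA.

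Across the 9 genes the best peak of a gene ranged from 0.0419% from the top (Ppargc1b, RXRα under RA) to 83.9% (Nrip1, RARβ under the control diet). The best of many peaks depends on how many there are, and a share of all genes is given beside each count. The best peaks of Ncor1, Nrip1, Ncoa1, Ncoa2, Ncoa3 and Ppargc1b were in the top 10% of both RXRα lists, beside 28.4% of all genes (34.3% of genes in the control list, 33% in the RA list), and those of Ep300, Crebbp and Med1 in neither. These 6 genes had from 9 to 22 RXRα peaks, Ep300 and Med1 from 4 to 8 and Crebbp 11 and 13. Of the 114 RXRα peaks at the 9 genes in each list, 16 and 13 were in the top 10% of the list, near the share that the limit itself sets. In the RARβ list of the control diet only Med1, Ncoa1 and Ncoa2 had a peak in the top 10%, beside 18.4% of all genes, and under RA 5 genes did, beside 29.1%. In the RARα lists 5 genes did under each diet, beside 36.2% and 40.2%. Where the best peak lay nearest to the start of another gene, which was so for 3 to 5 of the genes depending on the list, the rank may belong to that neighbour.

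Within 2 kb of the 50 kb limit, 13 peaks lay inside and 7 outside, and the best RXRα peaks of Ep300 were among those inside, at 48.7 and 48.8 kb from the gene. The nearest inside was an RXRα peak of Crebbp under RA at 49.738 kb from the gene, with a score of 82.4, and the nearest outside an RXRα peak of Ncoa1 under RA at 50.007 kb, with a score of 82.5.

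Other corepressor and coactivator genes, a list of 28 that includes Hdac3 and further Mediator subunits, were read at the start in the same way. A RARα peak lay within 1 kb of the start of 22 of them under the control diet and 25 under RA, beside the 45.9% and 46.2% of all genes. For RARβ the counts were 16 and 20, beside 33.1% and 40.3%, and for RXRα 17 and 19, beside 40.1% and 41.9%. In all 6 lists the start was bound at 13, beside 24.7%, among them Hdac3, Hdac1, Hdac2 and Gps2, which belong to corepressor complexes. Ncoa7, Nsd1 and Ppargc1a, the paralogue of Ppargc1b and a coactivator of hepatic gluconeogenesis, had none. A RARβ start peak under RA and not under the control diet was found at 4 of the 28, near the background of 9.89%.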

How the data were processed

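The authors aligned single-end reads to mm10 with Bowtie and called peaks per library with MACS, and no pooling of libraries is stated; CASAVA 1.4 is also named in the submitters' processing notes. The deposited files are 6 BED lists, and the deposited score of a peak is 10 times the negative log10 of its p-value, not normalized between libraries. Scores were used within a list only. The build was tested on the files: from 56 to 169 peaks per list ran past the chromosome ends of NCBIM37, so only GRCm38 annotation was used. The lists carry no read totals, so the depth per library is unknown and intervals cover counting error of peaks only.

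Gene spans came from a RefSeq table of GRCm38.p6. Strand came from the RefSeq promoter table for 17492 genes (6 of the 9) and from GENCODE M1 by symbol for 4044 (3 of the 9), and 21536 of 21900 protein-coding genes had one. The start is the outermost end of the span. Peaks were assigned by midpoint, shared peaks required 25% of both widths, and regions are merged overlapping peaks. Wilson intervals are at 95%, and intervals of ratios were converted from the Wilson interval of the RA share of both counts. Python 3.11.15, pandas 2.3.3, numpy 2.4.6, scipy 1.17.1 and matplotlib 3.10.9 were used, and the counting steps were tested on simulated data with known answers.

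Groups follow the receptor and the diet that the labels name. The 9 genes, the 28 other cofactor genes and the marker genes were chosen with earlier results of these data known. All 9 genes were named, with their best peak per list, their regions in all 6 lists and the regions where both RARs were gained under RA; other peaks are named after their values were seen. With 1 library per group no test was made. The input library was not used on its own. Receptor-binding motifs of the encoded proteins were not analysed here. Alternatives were a narrower window, a score of at least 100, lists cut to the same length, other overlaps, a merging gap of 200 bp and other limits at the start; a start inside the peak and any annotated start were added after seeing the data.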

Additional observations from a re-analysis of the deposited data

Results flagged for a closer look

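At 4 genes the RARα count was higher and the RXRα count lower in the RA list than in the control list. Each count is from 1 library, the share of all genes with this pattern is not given here, and the difference was not tested. At Ppargc1b the RA list minus the control list was 3 peaks for RARα, 4 for RARβ and −4 for RXRα. At Ncoa3 RARα differed by 4 peaks, RARβ by 7 and RXRα by −1. At Ncoa2 the differences were 1 peak for RARα and 3 for RARβ, with −1 for RXRα. At Ep300 only RARα rose, by 1 peak, while the difference was −1 for RARβ and −1 for RXRα. Over the whole lists the RXRα list was also slightly shorter under RA, 0.975 times the control list, and both RAR lists were longer.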

How the results depend on the processing

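Of 100 alternative values, 72 stayed within the spread that counting error gives, or within 1.5 times for counts of genes, and 28 did not. No ratio of RA to control peaks changed direction, and that of RXRα lay between 1.00 and 1.18. The RARβ ratio came to 1.11 when all lists were cut to the 14968 highest-scoring peaks, from 27 peaks under the control diet and 30 under RA. With equal lengths, regions in all 6 lists were 5.88%, and with a score of at least 100 they were 2.78%. Shares of RAR peaks on RXRα depended most on list length. For RARα under the control diet the share was 53.6% with the score limit, 22.7% with equal lengths and 53.4% with 50% overlap, and under RA 25% with equal lengths and 47.3% with 50% overlap. For RARβ it was 55.6% with the score limit and 25.9% with equal lengths under the control diet, and 97.4% in a 10 kb window, 82.8% with the score limit and 53.3% with equal lengths under RA. RARβ peaks of the control diet shared with RA were 48.1% with 50% overlap. The number of genes with a start peak for RARβ under the control diet was 6 within 10 kb and 1 with the score limit. For RXRα under the control diet it was 5 with the score limit, 2 with equal lengths and 4 when the start had to lie in the peak (added after seeing the data), and under RA 5, 2 and 5. In all 6 lists it was 6 within 10 kb, 0 with the score limit and 1 with equal lengths. Restricting best peaks to 10 kb of the start gave median ranks of 21.7% for RARβ under RA, 48.4% for RXRα in control livers and 34.6% for RXRα under RA. No paired analysis was possible because each group has 1 library. With 1 library per group and unknown depth, differences between diets, libraries and depths cannot be told apart.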

Other observations

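For each gene the cofactor gene with the most similar best peaks was sought among the 28 others, by the sum over the 6 lists of the absolute difference in rank percent. The closest pair was Ppargc1b with Trim24, at 10.4 percentage points in all, followed by Ncoa2 with Kat2a at 19.5, Ncoa1 with Smarca4 at 20.6 and Ncoa3 with Med24 at 26.4. Ncor1 was closest to Tbl1x, at 45.1, and Nrip1 to Tbl1xr1, at 36.7. Because Ncor1 had no RARβ peak under the control diet, its sum does not rest on an observed rank in every list. Ep300 and Crebbp were both closest to Med14, at 44.1 and 44.0, and Med1 to Prmt1, at 33.4. The points share the 6 libraries, and a small sum is a description only.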
